A study of Homo sapiens with 120 samples.

Results

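Of 120 RNA sequencing libraries in a study of the established human line CFPAC-1, derived from a ductal tumour of the pancreas, 17 came from rafts or wells without a cell. These were 10 libraries of empty microrafts, which the labels give 0 cells, and 7 libraries named for water. A microraft is a small releasable element of a culture array, picked with whatever sits on it. Of the empty rafts, 5 belonged to round 2 (rafts 2, 4, 6, 7 and 8) and 5 to round 1 (rafts 9 to 13), all of them untreated. Of the water libraries, 1 was named for round 2, 2 were taken as round 1 although their titles name no round, and 4 stood one each beside the untreated, saline, 2 nM gemcitabine and 5 nM gemcitabine arms. The label of each arm water carries the treatment of its arm. The blanks were set beside 4 bulk libraries of 10000 untreated cells each, 10 rafts with 1 untreated cell and 5 empty captures of the Fluidigm C1, a microfluidic instrument. The labels name no separate cultures or preparations, so p-values measure only the spread between these libraries, which may be technical.

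Per the labels, cDNA came from the SMARTer kit and sequencing libraries from Nextera XT. SMARTer chemistry primes polyadenylated RNA with oligo-dT, copies it by reverse transcription with template switching and amplifies the cDNA by PCR, so traces of RNA in medium, reagents or neighbouring wells can be amplified as well. Water libraries see the reagents, and empty rafts also see the array, the medium and the picking step. Each library was tagged with a pair of index sequences, shown here because libraries with the same pair cannot be told apart within one sequencing pool. Round 1 raft 9 and round 2 raft 2 carried the first index taaggcg with the second index gcgtaag. Round 1 raft 13, round 2 raft 8, the untreated arm water and the saline arm water all carried the first index ggactcc with the second index gcgtaag. All 5 empty rafts of round 2 reused the pairs of the 5 of round 1. The 2 nM and 5 nM arm waters both carried the first index aagaggc with the second index tatcctc. The 120 libraries used 46 pairs, and no pair was repeated within the 7 sets formed by the 2 rounds, the 4 arms and the C1. Blank type and set therefore overlap: rafts without cells exist in the 2 rounds only, and round 2 has 1 water library.

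Levels are FPKM, fragments scaled by transcript length and library total, and detection here means 1 FPKM or higher. The column totals of the 17 blanks ran from 339644 to 789691. Without read counts in the table, depth is unknown. Because FPKM is a share within a library, it does not show how much RNA a blank held. A library of few fragments spreads its total over few genes: the lowest value above 0 was 17682 FPKM in round 2 raft 2, 932 FPKM in the round 2 water library and 0.02 FPKM in round 1 raft 10. In the sparse blanks any assigned fragment therefore counts as detection, and a high FPKM there is not a high number of molecules.

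Empty rafts fell into 2 separate ranges by round. The rafts of round 2 had 10, 41, 11, 11 and 9 genes detected (rafts 2, 4, 6, 7 and 8), and the rafts of round 1 had 1102, 1301, 1167, 1191 and 1060 (rafts 9 to 13). The ranges did not overlap, with means of 16.4 in round 2 and 1164 ± 92.4 in round 1 (SD, n = 5 each). The round 2 minus round 1 difference was -1148 genes (exact permutation p = 0.00794, two-sided, the smallest that 5 against 5 allows, 0.0127 after Benjamini-Hochberg adjustment over 8 tests). Of the 7 water libraries 6 lay between the ranges and the saline arm water above both, with 81 genes in round 2, 249 and 423 in round 1, and 129, 2097, 347 and 428 in the untreated, saline, 2 nM and 5 nM arms. Single cells on rafts gave 4804 to 8461 genes, above all 17 blanks, and empty C1 captures gave 865 to 7953.

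**Figure D1:**
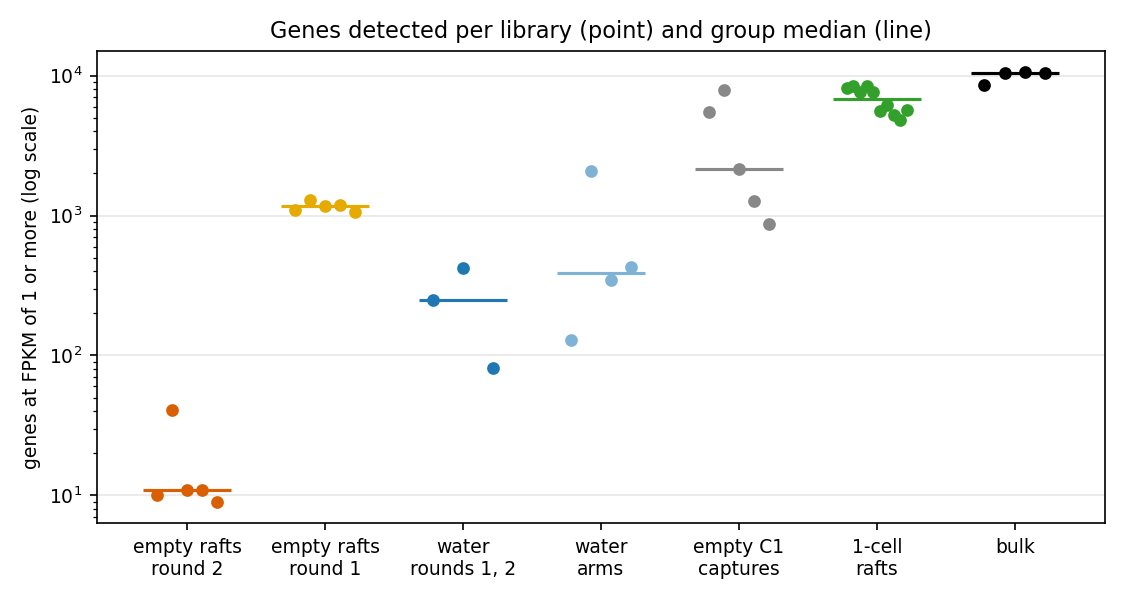
Genes at an FPKM of 1 or more (log axis) in each library (points), with the median of each group (lines), for empty rafts, water, empty C1 captures, rafts with 1 cell and bulk. The 5 empty rafts of round 2 lie between 9 and 41 genes and those of round 1 between 1060 and 1301.

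Over all blanks the number of genes in empty rafts and in water was not distinguished by the test, and the direction differed between rounds. Empty rafts averaged 590.3 ± 608 genes (SD, n = 10) and water 536 ± 701 (n = 7), a difference of 54.0 (exact permutation p = 0.849, two-sided). The 4 arm waters belong to neither round. With water of the rounds alone the difference was 339.3 (exact permutation p = 0.420), and without the saline arm water it was 314 (exact permutation p = 0.229). In round 2 every empty raft lay below the 1 water library of that round, with a mean difference of -64.6 genes that could not be tested. In round 1 every empty raft lay above both water libraries, by 828 genes on average (exact permutation p = 0.0476, the smallest that 5 against 2 allows).

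The 10 highest genes held a larger share of the total in empty rafts than in water. The 10 highest genes took 70.3% ± 26.4 of the total FPKM in empty rafts (SD, n = 10) and 25.5% ± 11.3 in water (n = 7), a difference of 44.7 percentage points (exact permutation p = 0.00129, two-sided, adjusted 0.0103 over 8 tests). That share was between 70.1% and 100% in the rafts of round 2 and between 38.2% and 52.5% in those of round 1. Rafts 2, 6, 7 and 8 of round 2 had 10, 11, 11 and 9 genes in all, so their shares of 99.1% to 100% follow from gene number. The test over all blanks therefore restates gene number in those rafts and is not separate evidence. With round 1 alone it averaged 46.9% in empty rafts and 28.8% in water, and the ranges overlapped (exact permutation p = 0.0952). In round 2 all 5 rafts lay above the 31.8% of the water library. Bulk libraries gave 9.71% to 11.5%.

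The leading transcript differed from blank to blank. In round 2 raft 2 it was HKR1, a zinc finger protein, at 139997 FPKM, against a bulk mean of 6.68. In round 2 raft 4 it was BLVRA, biliverdin reductase, at 119480 FPKM against 130 in bulk, and in round 2 raft 6 it was BZW1 at 148649 against 334. Rafts 7 and 8 of round 2 were led by ribosomal protein genes, RPL21 at 268818 FPKM and RPS19 at 222643, which stood at 2323 and 2964 in bulk. The rafts of round 1 were led by FTH1, the ferritin heavy chain (94685 FPKM in raft 9), ATP6V1F, a subunit of the vacuolar proton pump (71308 in raft 10), C1QBP (51606 in raft 11), RPS19 (51137 in raft 12) and ATP5G2 (58437 in raft 13). Most of these are abundant in CFPAC-1 bulk RNA, but not all leading transcripts were. KRTAP1-5, a keratin-associated protein of hair, was second in round 1 raft 10 at 55417 FPKM and was listed at 0 in the other 16 blanks, in bulk and in the rafts with 1 cell.

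The leading transcripts of the water libraries also differed. In round 1 water 1 the first gene was CLPSL1, a colipase-like gene, at 151036 FPKM or 26.6% of the total, and it was listed at 0 in every other blank and in bulk. Round 1 water 2 was led by FTH1 at 29721 FPKM and the round 2 water by S100A11, a calcium-binding protein, at 42396 FPKM. FTH1 and S100A11 had bulk means of 7165 and 2865 FPKM. The next genes of round 1 water 1 were SP100, a nuclear body protein, and RASGRP3, an exchange factor for small GTPases, with bulk means of 29.3 and 4.17 FPKM. The untreated arm water was led by RAB12, a small GTPase of membrane traffic, at 46204 FPKM against a bulk mean of 5.34. The saline and 2 nM arm waters were led by a name on several rows of the table and the 5 nM arm water by an unmatched name, and these are not described. The 5 nM arm water held RAB12 at 10798 FPKM and ITPK1, an inositol phosphate kinase, at 16329 FPKM, against 8.30 in bulk for ITPK1.

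Which genes appeared in a blank followed bulk abundance in some blanks and not in others. Rafts with 1 cell served as the comparison. There, detection climbed with bulk level, with a median of 11.1% of the genes between 0 and 1 FPKM in bulk and 100% of those over 1000. In the empty rafts of round 1 it did not climb: the median was 8.22% of genes over 0 to 1 FPKM, 7.52% over 1 to 10, 5.47% over 10 to 100, 4.19% over 100 to 1000 and 9.23% of the 130 genes over 1000. Water of the rounds climbed, with medians of 0.515%, 1.10%, 1.66%, 3.31% and 11.5% in the same classes (n = 3). Water of the arms had 2.71%, 2.47%, 1.70%, 1.12% and 0.769% (n = 4), highest among the genes of low bulk level. The saline arm water was apart from the other arm waters, detecting 33.1% of the genes over 1000 FPKM. Among the 100 highest genes of bulk, round 2 rafts detected 0 to 3 and round 1 rafts 7 to 15. Water 1 and water 2 of round 1 detected 13 and 43 of them, the round 2 water 11, and the untreated, saline, 2 nM and 5 nM arm waters 0, 37, 2 and 0. Rafts with 1 cell detected 97 to 100.

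**Figure D2:**
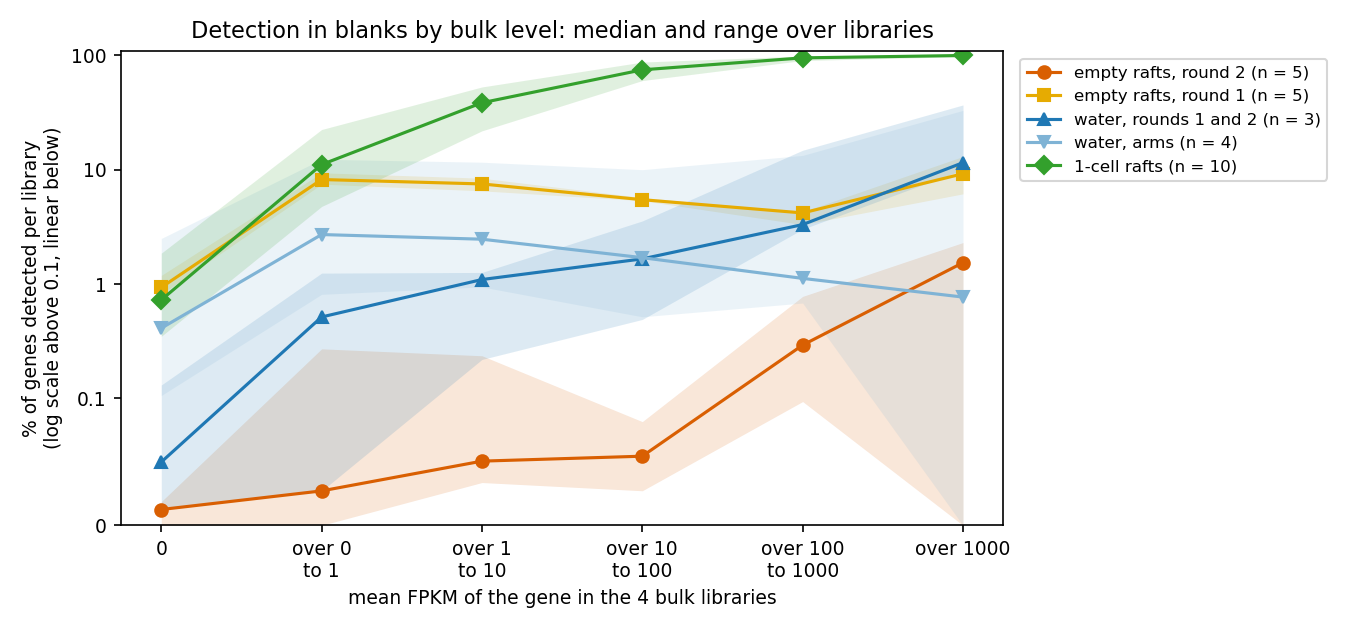
Percentage of genes detected per library (vertical axis, logarithmic above 0.1 and linear below) by mean bulk FPKM of the gene, as the median (markers) and range (bands) over the libraries of each group. The median in rafts with 1 cell climbs to 100%, and that in water of the rounds climbs to 11.5% (range 10% to 36.9%). Above a bulk level of 0, the medians of empty rafts of round 1 stay between 4.19% and 9.23%, with single rafts at 3.31% to 13.1%.

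The rank order of levels gave the same division. Spearman rho with bulk, taken across the 10767 genes that average at least 1 FPKM in bulk, lay between -0.0044 and 0.0304 in the rafts of round 2 and between -0.0518 and -0.0318 in those of round 1. The rho describes each library across genes, which are not independent replicates. The rounds did not overlap and differed by 0.0624 (round 2 minus round 1, exact permutation p = 0.00794, two-sided, the smallest possible, adjusted 0.0127). In water rho was 0.0506 and 0.198 in round 1, 0.0964 in round 2, and between -0.0379 and 0.0106 in the arms. Empty rafts minus water gave -0.0499 (exact permutation p = 0.106). With water of the rounds alone the difference was -0.127 (exact permutation p = 0.0035), and in round 1 alone -0.168 (p = 0.0476 by exact permutation, the smallest possible). Rafts with 1 cell had a rho between 0.592 and 0.729.

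Genes averaging under 1 FPKM in bulk were detected in every blank but round 2 raft 8. In the rafts of round 2, 68.3% to 100% of the 9 to 41 detected genes averaged at least 1 FPKM in bulk. In the rafts of round 1 the share was 58.6% to 63.1%. For comparison, it was 48.5% over all rows detected in any of the 120 libraries and 86.7% to 95.4% in rafts with 1 cell. Round 2 lay above round 1 by 21.9 percentage points (exact permutation p = 0.00794, the smallest possible, adjusted 0.0127). In water it was 73.1% and 93.6% in round 1, 96.3% in round 2 and 55.6% to 63.6% in the arms. Empty rafts and water averaged 71.6% and 71.5% (exact permutation p = 0.986), while in round 1 alone empty rafts lay 22.7 points below water (p = 0.0476 by exact permutation, the smallest possible).

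By level, genes over 100 FPKM in bulk took 15.3% to 90.2% of the total in round 2 rafts and 33% to 49.7% in round 1 rafts. They took 17% and 68.6% in round 1 water, 74.0% in the round 2 water and 4.12% to 12.2% in the arm waters, against 77.9% to 83.2% in the bulk libraries. Genes listed at 0 in all bulk libraries took 9.02% to 21.2% in round 1 rafts. They took 31.6% in round 1 water 1, 1.64% in round 1 water 2, 1.60% in the round 2 water and 15% to 18.9% in the arm waters. A detected gene nearly always stood above its own bulk level, in 92.0% to 100% of genes over all 17 blanks. In rafts with 1 cell the share was 56.3% to 65.4%, and in empty C1 captures 58.3% to 81.5%. In a sparse library any detected gene takes a high FPKM, so nothing is read from this share. The median FPKM of a detected gene in round 1 rafts was 106 to 163, while the median bulk level of the same genes was 1.76 to 2.24 FPKM. In the arm waters those bulk medians were 1.52 to 1.93 FPKM, and in round 1 water 2 and the round 2 water they were 83.3 and 187 FPKM.

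**Figure D3:**
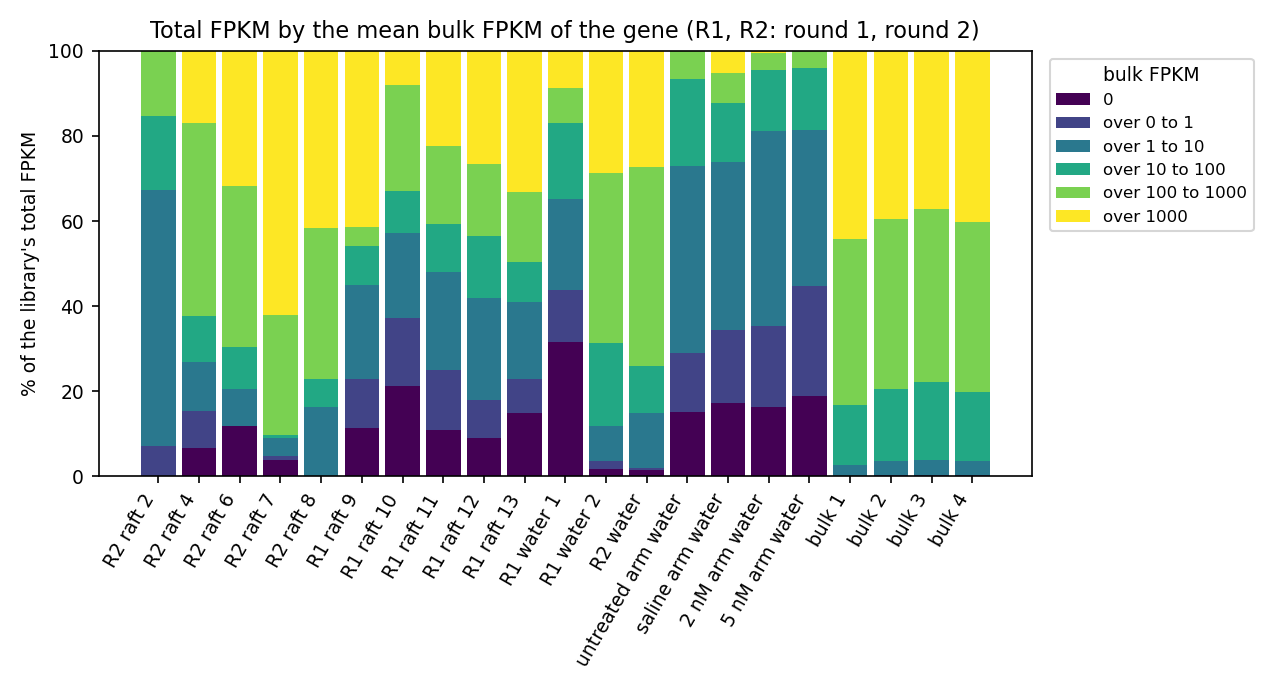
Share of each library's total FPKM (vertical axis, percent) held by genes of 6 classes of mean bulk FPKM, for empty rafts of round 2 and round 1, the 7 water libraries and the 4 bulk libraries. The arm waters hold at most 12.2% in genes over 100 FPKM, where bulk holds 77.9% or more.

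Most transcripts appeared in a single blank. Over the 17 blanks 5058 rows of the table were detected at least once, of which 2837 in 1 blank only, 315 in 5 or more and 60 in 7 or more. Empty rafts detected 3320 rows and water 3133, and 1395 were found in both, 42.0% of the raft rows and 44.5% of the water rows. The 5 rafts of round 2 detected 80 rows in all, of which 78 in 1 raft each. The 5 rafts of round 1 detected 3296, and 72 of these were found in all 5. Any 2 rafts of round 1 shared 346 to 454 genes, a median of 34.0% of a raft's genes.

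Recurrent genes were not lower in bulk than blank genes in general. The bulk median was 2.79 FPKM for the rows found in 7 or more blanks, 2.48 for those in 5 or more and 2.21 for all 5058. RAB12 was detected in 12 of 17 blanks, more than any other gene. It stood at 21760 FPKM in round 2 raft 6, at 0 in the other 4 rafts of that round, and at 3668, 1314, 161, 655 and 362 FPKM in round 1 rafts 9 to 13. It stood at 2978 and 5661 FPKM in round 1 water, 5631 in the round 2 water, 46204, 371 and 10798 in the untreated, saline and 5 nM arm waters, and 0 in the 2 nM arm water. Bulk had 5.34 ± 3.58 FPKM (SD, n = 4) and rafts with 1 cell at most 20.8 FPKM. ATP9B, a P4-type ATPase, and C12orf65, a factor of mitochondrial translation release, were each detected in 9 blanks, with bulk means of 5.88 and 20.2 FPKM. C12orf65 was in round 2 raft 2 at 64255 FPKM, in all 5 rafts of round 1 (107 to 1260 FPKM) and in 3 water libraries.

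The chemokine CCL5 was found in all 5 rafts of round 1 and in 3 water libraries, all of them arm waters. It was listed at 0 in all 5 rafts of round 2 and stood at 1735, 3138, 1370, 3191 and 2534 FPKM in round 1 rafts 9 to 13. In water it stood at 1803, 3846 and 1421 FPKM in the saline, 2 nM and 5 nM arms and at 0 in the other 4. KIAA1328 was found in the same 8 blanks, at 292 to 1948 FPKM in the rafts of round 1. Bulk means were 2.64 FPKM for CCL5 and 9.15 for KIAA1328. Other genes in all 5 rafts of round 1 were GEMIN8, of the complex that assembles spliceosomal particles (115 to 823 FPKM), ODF2L (39.0 to 691), MTFMT, the mitochondrial methionyl-tRNA formyltransferase (282 to 612), SPNS1, a lysosomal transporter (240 to 1011), and PHACTR4, a regulator of protein phosphatase 1 (147 to 2596). Of the 72 rows found in all 5, 5 also appeared in a raft of round 2 and 66 in water. Over all rows detected in empty rafts 42.0% were in water, and the saline arm water alone had 2097 genes. Rows found in many libraries are also more readily found in others, so no likeness is read from these counts. Their bulk median was 3.67 FPKM with a highest value of 150. Each was detected in 16 to 56 of the 64 rafts of the untreated, saline and gemcitabine arms, with a median of 37.5 rafts. The same share over all rows is not given. Of the 72 rows, 86.1% averaged at least 1 FPKM in bulk, against 48.5% of all rows detected in any library. Nothing is therefore read from their detection in the arm rafts.

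**Figure D4:**
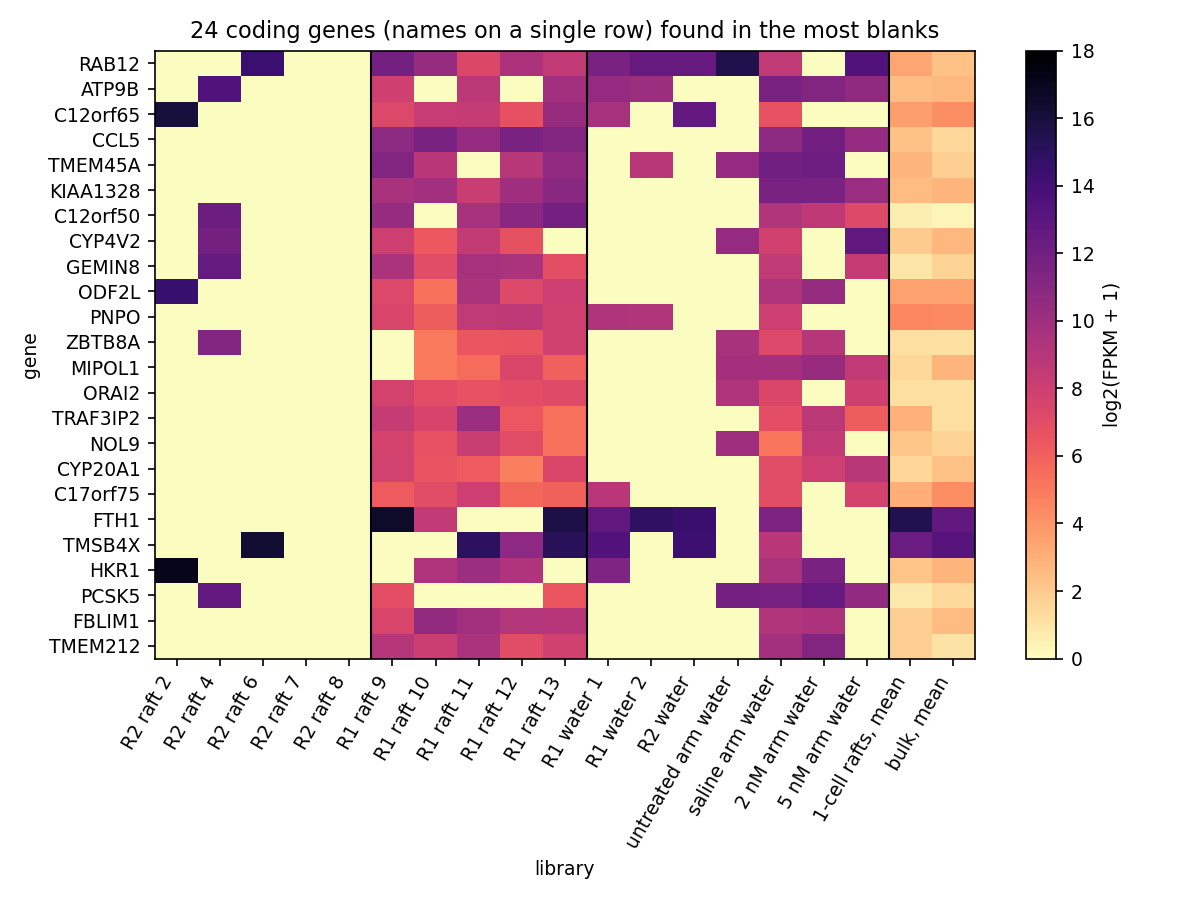
Levels as log2(FPKM + 1) (colour) of the 24 coding genes detected in the most blanks among names that stand on a single row of the table (rows), in each blank and as means over rafts with 1 cell and bulk (columns). Apart from FTH1 and TMSB4X these genes have bulk means of at most 20.6 FPKM, and RAB12 is present in 12 of 17 blanks.

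Genes shared between libraries are given as a share of the first library's genes, as a description. The saline arm water held 36.5% to 39.3% of the genes of each round 1 raft, and the 2 round 1 water libraries held 2.92% to 5.91%. The untreated arm water held 3.68% to 4.70%, the 2 nM arm water 7.38% to 9.43% and the 5 nM arm water 10.5% to 11.9%. The saline arm water had 2097 genes, the round 1 water libraries 249 and 423, and the untreated, 2 nM and 5 nM arm waters 129, 347 and 428. The part of gene number in these shares was not tested. An empty C1 capture of 2137 genes held 25.7% to 29%. Read the other way, 8.98% to 27.7% of the genes of round 1 water stood in a given round 1 raft. Water 2 of round 1 shared 83.0% to 91.3% of its genes with each 1-cell raft of that round, water 1 shared 65.1% to 71.9%, and the round 2 water shared 80.2% to 87.7% with 1-cell rafts of round 2. The empty rafts of round 1 shared 45.4% to 61.2% with the 1-cell rafts of round 1, which had 7579 to 8461 genes. Across the 5058 rows Pearson's r of log2(FPKM + 1) was 0.146 to 0.174 between rafts of round 1, -0.102 to 0.031 between them and round 1 water, and 0.389 to 0.438 between water 2 and the 1-cell rafts of round 1. Between rafts of round 1 and empty C1 captures it was 0.0025 to 0.227. The library nearest to each raft of round 1 was the same nonproliferative raft of the saline arm, with 10424 genes (r of 0.281 to 0.307). These r are descriptions over rows that are mostly 0 in a blank.

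Transcripts of the translation machinery, among the most abundant of any growing cell, were present in part. Of 82 ribosomal protein genes 32 were detected in at least 1 empty raft and 40 in at least 1 water library, and bulk detected 79. For comparison, of all genes over 1000 FPKM in bulk 30.8% were detected in some raft of round 1 and 56.2% in some water library. Nothing is read from the counts of the list. They took 0 to 59.5% of the total in round 2 rafts, 2.79% to 27.6% in round 1 rafts and 0.21% to 12.7% in water, against a bulk median of 15.4%. A single blank held few of them: 0 to 3 of 82 in round 2 rafts, 5 to 14 in round 1 rafts, and 26 in round 1 water 2, the most of any blank. RPL21 stood at 268818 FPKM in round 2 raft 7, at 52253 and 32853 in round 1 rafts 9 and 12, at 782 in the saline arm water and at 0 in the other 13 blanks. RPS3A stood at 102738 and 100827 FPKM in round 2 rafts 6 and 8, at 3113 in round 1 raft 13 and at 4365 in round 1 water 2. Of 88 respiratory chain genes, 18 were seen in empty rafts and 27 in water. ATP5A1, a subunit of ATP synthase, was seen in 2 of each.

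Of 13 abundant housekeeping genes, 5 were seen in an empty raft and 10 in water. Beside the shares given above for all genes over 1000 FPKM in bulk, nothing is read from these counts. FTH1 stood at 94685, 357 and 54703 FPKM in round 1 rafts 9, 10 and 13 and at 0 in the other 7 rafts. In water FTH1 stood at 7005 and 29721 FPKM in round 1, 21876 in round 2 and 2841 in the saline arm, against 7165 ± 3290 in bulk (SD, n = 4). TMSB4X, the actin-binding thymosin beta-4 and the highest coding gene of bulk at 9788 FPKM, was detected in 4 rafts and 3 water libraries. B2M, the light chain of class I MHC, was detected in 1 raft, at 267 FPKM, and in 3 water libraries at 256 to 12446 FPKM.

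Markers of the CFPAC-1 cell were detected in part. Of 15 epithelial genes, all above 1 FPKM in bulk, 2 were detected in an empty raft and 4 in water. For comparison, of all genes over 100 to 1000 FPKM in bulk 12.9% were detected in some raft of round 1 and 32% in some water library, so the markers are not set apart by these counts. KRT8, a keratin of simple epithelia, stood at 183 and 100 FPKM in round 1 rafts 9 and 10 and at 0 in the other 15 blanks, against 348 in bulk. KRT18, its partner keratin, stood at 546 FPKM in the saline arm water only, against 785 in bulk. CEACAM6, a surface protein of epithelia, was seen in no raft and in 2 water libraries. EPCAM was listed at 0 in all 17 blanks and averaged 323 FPKM in bulk, and CFTR was listed at 0 in both. Of 14 proliferation genes, 1 was seen in a raft and 6 in water, with CDK1, the mitotic kinase, at 1055 FPKM in round 1 water 2 and 138 in the saline arm water. These genes held 1.11% of the total FPKM in round 1 water 2 and a median of 1.43% in bulk. CCNB1, its cyclin, stood at 5860 FPKM in the round 2 water.

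Of 22 genes with symbols starting in S100, 2 were seen in rafts and 4 in water. The raft genes were S100A6 and S100PBP, a gene for a binding partner and not a member of the family, and S100A11 was in no raft and in 3 water libraries at 942 to 42396 FPKM. Of 9 MTRNR2L genes, copies of a mitochondrial ribosomal RNA sequence, 3 were seen in rafts and 2 in water, none above 340 FPKM. Histone genes were seen for 1 of 72 in rafts and 3 in water. Of 392 olfactory receptor genes, which are not expected in epithelium, 2 were seen in rafts and 8 in water, all 8 of them in the saline arm water. For comparison, of all genes at 0 in bulk 3.48% were detected in some raft of round 1 and 3.36% in some water library. Of those over 1 to 10 FPKM in bulk the shares were 19.7% and 16.3%, and nothing is read from the list counts. OR7D2 stood at 64 to 157 FPKM in 3 rafts of round 1 and at 88.6 and 732 FPKM in the saline and 2 nM arm waters.

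Globin transcripts, which carry the oxygen-binding chains of red blood cells, appeared in empty rafts and in no water or bulk library. HBB, beta globin, stood at 0, 5217, 4580, 4166 and 16134 FPKM in round 1 rafts 9 to 13. HBA2, alpha globin, stood at 9072, 2709, 1799, 0 and 20516 FPKM in the same rafts, and HBA1 at 1489 FPKM in raft 10. HBA1 and HBA2 are nearly identical, so their division is uncertain. HBD, delta globin, stood at 24957 and 62708 FPKM in round 2 rafts 4 and 6 and at 0, 3921, 1862, 399 and 6222 FPKM in round 1 rafts 9 to 13. HBE1, the embryonic epsilon chain, was in 4 rafts of round 1 (232 to 962 FPKM) and HBG2, a fetal gamma chain, in 2 (229 and 926 FPKM). HBE1 and HBG2 were chosen after their values were seen. Thus 2 of 5 rafts of round 2 and 5 of 5 rafts of round 1 held a globin, and the 7 water and 4 bulk libraries had each of them at 0. The globin genes HBM, HBQ1 and HBZ were listed at 0 in all 17 blanks. For comparison, of the 3320 rows detected in empty rafts 1925 were in no water library, and 21.0% of those 1925 were at 0 in bulk.

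Globins took 4.36% and 11% of the total in round 2 rafts 4 and 6 and 0.857% to 7.62% in the rafts of round 1. Among the 99 remaining libraries the highest values were 451 FPKM for HBA2, 9.87 for HBB and 12.9 for HBD, in 1, 3 and 3 libraries with detection. HBA1 was detected in 8 of the 99, at up to 46.2 FPKM, HBE1 in 1 at 263 FPKM and HBG2 in 13, an empty C1 capture among them, at up to 39.4 FPKM. The difference between empty rafts and water was not called by limma over all genes: mean log2(FPKM + 1) was 7.46 for HBD in rafts and 0 in water (adjusted p = 0.639), 5.05 for HBB (adjusted p = 0.639) and 4.97 for HBA2 (adjusted p = 0.639). Of the rest of the 7 measured blood markers, PTPRC, the common leukocyte antigen, stood at 149 FPKM in round 1 raft 10 and 182 in the saline arm water. CD3E, of T cells, and S100A8 and S100A9, of myeloid cells, were listed at 0 in all blanks. The source of the globin transcripts was not tested.

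**Figure D5:**
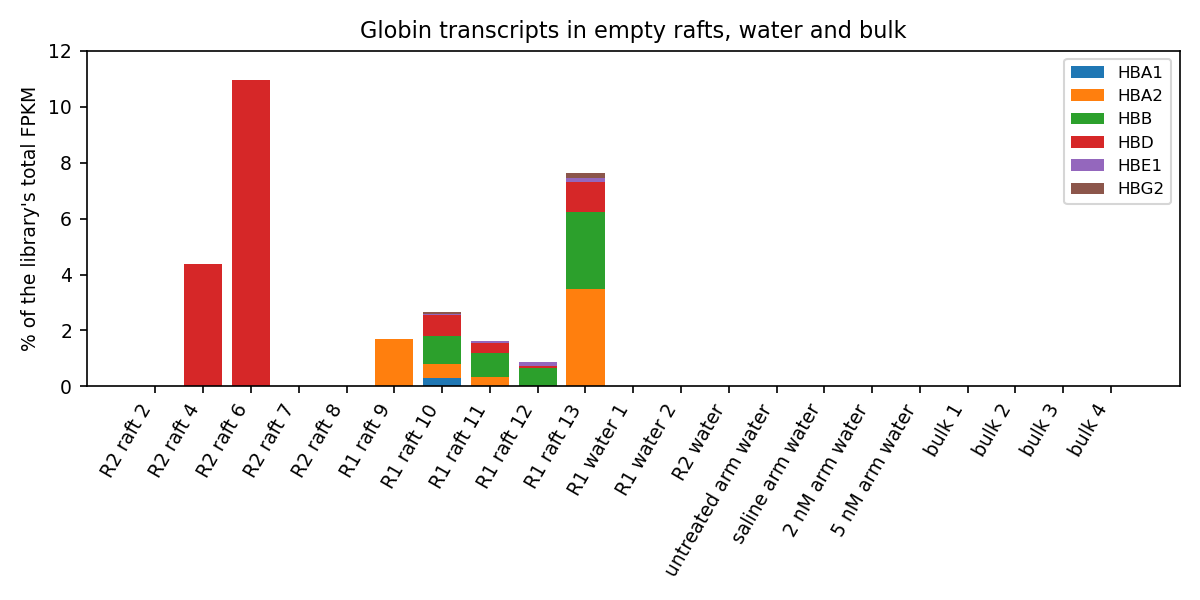
Share of total FPKM (vertical axis, percent) held by the 6 globin genes detected in an empty raft, for each empty raft, water library and bulk library. Bars reach 11% in round 2 raft 6 and 7.62% in round 1 raft 13, and water and bulk are at 0.

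Markers of further cell types were almost all at 0. Of 12 skin markers only FLG was seen, at 20.3 FPKM in the saline arm water, with KRT10, KRT14 and DSG1 at 0 in all blanks. No fibroblast marker of 5 was seen in a blank. Of 3 endothelial markers PECAM1 was seen, at 76.5 FPKM in round 1 raft 11. For comparison, of all genes at 0 in bulk 3.48% were detected in some raft of round 1 and 3.36% in some water library. Nothing is therefore read from these list counts. The hair gene KRTAP1-5 described above was not on the skin list.

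A test of each gene called none between empty rafts and water. Of 1178 genes detected in at least 3 of the 17 blanks, limma on log2(FPKM + 1) called 0 after Benjamini-Hochberg adjustment (0% called), and 27 had an unadjusted p under 0.05. The smallest p-values belonged to HBD, S100A11, C19orf33, CTSC and RPS10 (adjusted p = 0.639 each). As mean log2(FPKM + 1), S100A11 had 0 in rafts and 5.30 in water, and C19orf33 had 0 in rafts and 5.17 in water. CTSC, the lysosomal protease cathepsin C, was listed at 0 in all 10 rafts and stood at 617, 1067, 170 and 212 FPKM in round 1 water 1 and the untreated, saline and 2 nM arm waters. RPS10, of the small ribosomal subunit, stood at 102 FPKM in 1 raft and at 2753, 3192, 19464 and 345 FPKM in 4 water libraries. With rounds 1 and 2 only and the round as a covariate, RPS10 was called lower in empty rafts, by the 1 call of that fit (limma adjusted p = 1.92e-05). On simulated data with this spread, 30 of 50 genes shifted by 6 on the log2 scale and 7 of 50 shifted by 4 were recovered, so only very large differences could be called. In round 1 alone, a choice made after the data were seen, 40 genes were higher and 1 lower in empty rafts of 742 tested, and the lower one was RPS10 (limma adjusted p = 0.0299). Rafts of 1060 to 1301 genes pass the detection filter more readily than water of 249 and 423, so the filter favours genes higher in rafts and the 40 are no support for a direction. RPS10, detected in 1 raft, could pass the filter only through water, where it is high. Its calls with the round as a covariate and in round 1 alone are therefore no support for a direction either.

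Between the rounds nearly every tested gene was lower in round 2. Of 689 genes detected in at least 3 of the 10 empty rafts, limma called 656 lower and 0 higher in round 2 (95.2% called). The filter fixes this direction, since the 5 rafts of round 2 held only 80 rows, so a gene could pass almost solely through round 1. CCL5 averaged 0 in round 2 and 11.15 ± 0.54 in round 1 on the log2 scale (SD, n = 5 each). KIAA1328 averaged 0 in round 2 and 9.70 ± 0.99 in round 1. HBD averaged 6.11 in round 2 and 8.81 in round 1. These values and the 656 calls are a description, and nothing is read from their direction.

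Against bulk, most tested genes were lower in blanks. A single limma fit of 10 empty rafts, 7 water and 4 bulk libraries tested 10164 genes, and both contrasts share the same 4 bulk libraries. Most genes pass the filter of 3 libraries through bulk, and sparse blanks must then lie lower, so nothing is read from the lower calls. In empty rafts 8073 genes were lower than bulk (79.4% called) and 2 higher (0.0197% called). In water 7981 were lower (78.5% called) and 3 higher (0.0295% called). With detection required in at least 5 libraries, 1410 genes were lower in empty rafts and 1276 in water, of 2680 tested. Among the highest bulk genes, RPL19, at 3895 FPKM in bulk, was at 0 in all 17, NPM1, a nucleolar chaperone at 5673 FPKM in bulk, was in no raft, and MMP7, the secreted protease matrilysin at 2746 FPKM in bulk, was in no water library.

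The 2 genes higher in empty rafts than in bulk were HBD and SPIRE2, an actin nucleator, both listed at 0 in bulk. Neither was detected in water, so both passed the filter through empty rafts alone and could only lie higher there. Nothing is read from the direction of these 2 calls. SPIRE2 stood at 0 in all rafts of round 2, at 150, 124, 208, 134 and 94.9 FPKM in round 1 rafts 9 to 13 and at 0 in all water. Its mean on the log2 scale was 3.56 in empty rafts and 0 in bulk (limma adjusted p = 0.0400), and without any one bulk library the adjusted p was 0.0738 to 0.0762. For HBD the adjusted p was 0.0181, and 0.0392 to 0.0405 without any one bulk library. Of the 3 genes higher in water, RAB12 averaged 10.56 in water and 2.26 in bulk as log2(FPKM + 1), a difference of 8.29 with an SE of 3.50 (adjusted p = 0.0365 by limma). That call was lost without bulk replicate 1, which had the gene at 0 (adjusted p = 0.0537), and when genes were tested without the detection filter (adjusted p = 0.893). The other two were a name not matched to a gene and an antisense RNA, which cannot be told from its partner where strand is not given.

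PCSK5, TMEM45A and ASTN2 were chosen with earlier results of these data known. PCSK5, a proprotein convertase, stood at 6337 FPKM in round 2 raft 4 and at 113 and 89.5 FPKM in round 1 rafts 9 and 13. In water it stood at 3760, 3525, 5767 and 1569 FPKM in the untreated, saline, 2 nM and 5 nM arms and at 0 in the 3 libraries of the rounds, against 2.51 FPKM in bulk. TMEM45A, a transmembrane protein, stood at 2497, 451, 486 and 1541 FPKM in round 1 rafts 9, 10, 12 and 13. In water it stood at 467 FPKM in round 1 water 2 and at 1395, 3979 and 4379 in the untreated, saline and 2 nM arms. ASTN2, an astrotactin, was in no empty raft and stood at 571, 672 and 249 FPKM in the saline, 2 nM and 5 nM arm waters. None of the 3 was called between empty rafts and water (limma adjusted p = 0.639, 0.944 and 0.639).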

How the data were processed

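The authors deposited 1 table of FPKM values, 30504 rows by 120 libraries, made with RSEM against hg19 per the submitters' processing notes. The unit is read from the values: column totals differ and were lower where the weighted transcript length was greater. Of its rows 69.3% matched names in GENCODE release 29, used only for gene types and lengths, as its build is not hg19. Other steps are not given in the sources used here. Groups came from the labels. Group measures were compared by exact permutation of libraries. Genes detected in at least 3 libraries of a comparison were tested with limma 3.58.1 (trend, two-sided, log2 of FPKM plus a pseudocount of 1, Benjamini-Hochberg, threshold 0.05) in R 4.3.3, tested on simulated data. Other steps used scipy 1.17.1, numpy 2.4.6 and pandas 2.3.3 under Python 3.11.15, with figures from matplotlib 3.10.9. Members and gene lists were chosen with earlier results of these data known. Named genes were the most often detected, the 3 highest per blank, the largest calls, the highest in bulk and up to 4 per list. The 1116 names on several rows and unmatched names were counted, not described. Alternatives changed detection, pseudocount, filter, scaling and libraries. Depth is unknown, so no counting interval is given.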

Additional observations from a re-analysis of the deposited data

Results flagged for a closer look

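Round 2 raft 4 stood apart from the other empty rafts of its round. It had 41 genes detected, where the nearest had 11, and its 10 highest genes took 70.1% of the total FPKM, where the nearest raft had 99.1%. These are not separate observations, since a raft with 11 genes or fewer must hold nearly all of its total in 10. The saline arm water had 2097 genes, the highest of the 7 water libraries, where the nearest had 428. These gaps exceeded Dixon's limit in 3 of 20 sets of values examined, and chance alone gives about 1 in 20.

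The raft minus water difference in genes detected had opposite signs in the 2 rounds, -64.6 genes in round 2 and 828 in round 1, with every empty raft below the water library in round 2 and above both in round 1. The difference between rounds was not tested, since round 2 has 1 water library.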

How the results depend on the processing

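Between empty rafts and water limma called 0 genes at every planned setting except with the round as a covariate (1, RPS10, lower). In round 1 alone, chosen after the data were seen, it called 41. Between rounds it called 305 without a filter and 70 with detection in at least 5 libraries. That filter gave 1412 for empty rafts and 1277 for water against bulk. With round 1 rafts alone, chosen after the data were seen, 254 genes were higher than bulk, and with round 2 rafts alone 0. Genes at 0 in bulk could pass the filter only through blanks and could then only lie higher. The rafts of round 2 held few rows, so nothing is read from either count.

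The raft minus water difference in genes was -0.392 on log10 counts, 828 in round 1 alone and, chosen after the data were seen, -519.9 with round 2 rafts only. The bulk-expressed share differed by -0.761 points at a bulk mean of 5, by -22.7 in round 1, by -16.1 with water of the rounds and by -10.8 with round 1 rafts only. The Spearman correlation with bulk differed by -0.168, -0.127 and -0.0811 under the last 3 of these. The share of the highest genes differed by 14.9 points over 100 genes and by 18.1 in round 1. The causes were not tested.

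Leaving out 1 library gave 245 to 447 calls between rounds. Against water it gave -24.95 genes (without round 1 raft 10) to 314 (without the saline arm water), -3.03 to 4.26 points in the bulk-expressed share, and a difference in that correlation of -0.0625 (without the 5 nM arm water, exact permutation p = 0.0452) to -0.0232. No paired analysis was possible because replicate numbers were given in accession order and pair no libraries. Depth is unknown, so absence of a gene from a blank is not shown.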
